A study of Mus musculus with 10 samples.

Results

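Genes of the fibroblast growth factor (FGF) pathway, 10 in all, were described across 5 types of mouse cochlear cell: the receptors Fgfr1, Fgfr2 and Fgfr3, the ligands Fgf8 and Fgf20, and the feedback targets Etv4, Etv5, Spry1, Spry2 and Spry4. They were the rows with these symbols among the 34590 genes listed in the count files. RNA came from handpicked fluorescent cells and was measured by bulk RNA-seq in 10 libraries, 2 of each cell type. Supporting cells, SCs (P26), came from Fgfr3iCreER+ mice with a Rosa26 tdTomato reporter, and were labelled P26 and P27. Converted hair cells, cHCs (P33), came from mice that carried the same Cre and reporter together with Atoh1-HA, a transgene of the hair cell transcription factor Atoh1, and an EGFP reporter under the Chrna9 promoter. Tamoxifen was given to both from P12. Outer hair cells, OHCs (P22), came from prestin-YFP knock-in mice and were labelled P21 and P22. OHCs (P7) carry the same genotype in the labels, whereas the study's methods list PrestinCreERT2 with tdTomato and tamoxifen, a difference that could not be settled. Inner hair cells, IHCs (P74), came from Pvalb-Cre mice with tdTomato and were labelled P74 and P75. No wild-type control without a reporter was among the libraries. Cells were pooled for each library, and the study describes the libraries of a type as biological duplicates.

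FGFs are secreted proteins that bind receptor tyrosine kinases on the cell surface, and the activated receptors act through adaptors on the RAS and ERK kinase cascade. ERK activity turns on Etv4 and Etv5, transcription factors of the ETS family, and the Sprouty genes, whose products damp the same cascade, so the targets serve as a readout of signalling and as its brake. In the developing cochlea FGF20 acts on the formation of the sensory epithelium through FGFR1, and FGF8 from IHCs acts through FGFR3 on the pillar cells, a type of SC. Fgfr3 marks Deiters' and pillar cells, and its promoter drove the Cre by which both SCs and cHCs were labelled and picked. A high Fgfr3 level in those libraries is therefore not independent of the way the cells were chosen.

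The libraries held from 15016129 to 40518766 reads on genes, and 3 counts, the most that a library with none could hide, amounted to between 0.0740 and 0.200 CPM before scaling. All levels below are CPM, counts relative to the total of the library, scaled by TMM, a correction for library composition. Markers followed the labels in part. The 8 hair cell markers summed to between 360 and 362 CPM in SCs and between 4512 and 9075 CPM in the other 8 libraries. Slc17a8, the glutamate transporter of IHCs, stood at 1907 and 1763 CPM in IHCs and at 75.5 CPM or less elsewhere. The IHC libraries also held all 7 SC markers, at a summed 804 and 639 CPM. The 4 neuronal markers summed to 510 and 579 CPM in IHCs, against 106 CPM or less in every other library. Of these 4, Tubb3 did not follow the sum, with a mean of 0.795 CPM in IHCs and 1.11 CPM in OHCs (P22). The 2 blood markers summed to 24.5 and 12.8 CPM in IHCs, and stayed under 1 CPM elsewhere. OHC (P7) library 15 held collagen and decorin transcripts of connective tissue at 382 CPM, against 3.0 CPM in library 14. In bulk RNA, fewer cells of a type and less RNA per cell cannot be told apart. The libraries of SCs, cHCs and OHCs (P7) are numbered 11 to 16, and those of OHCs (P22) and IHCs bear another number series, which cannot be told apart from cell type in comparisons across them.

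Fgfr3 was the most abundant of the 3 receptors in SCs and cHCs. Its gene lies on chr5:34064373-34079716 of mm9, on the plus strand. Its level was 312 and 167 CPM in SCs, 458 and 431 CPM in cHCs, 103 and 32.8 CPM in OHCs (P7), 4.41 and 1.90 CPM in OHCs (P22), and 17.3 and 0 CPM in IHCs. Both cHC libraries stood above both SC libraries, and both OHC (P22) libraries stood below all SC, cHC and OHC (P7) libraries. The order of the means was cHCs, SCs, OHCs (P7), IHCs and OHCs (P22), with the fitted difference of the last pair of the opposite sign by limma-voom. No neighbours in this order passed edgeR's quasi-likelihood test of their difference, with adjusted p-values of 0.842, 0.562, 0.463 and 0.691 down the order. The IHC library labelled P75 held no Fgfr3 count, whereas the one labelled P74 held 514.

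Fgfr1, the receptor used in early sensory development, stood below Fgfr3 per kb of exon in SCs and cHCs, and level with it or above it in the OHC (P22) libraries (0.645 and 0.935 against 0.641 and 0.275 CPM per kb). Its gene lies on chr8:26624126-26686186 of mm9, on the plus strand, and shares exonic bases with Gm16159 on the other strand. The sources used here do not give the strand setting of the counting, so reads of that overlap could not be assigned. Fgfr1 stood at 64.9 and 70.0 CPM in SCs, 124 and 108 CPM in cHCs, 10.9 and 35.9 CPM in OHCs (P7), 5.20 and 7.54 CPM in OHCs (P22), and 0.168 and 17.1 CPM in IHCs. The cHC libraries were the highest and did not overlap those of SCs. The order of the means was the same as for Fgfr3.

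Fgfr2, whose alternatively spliced forms serve epithelium and mesenchyme, was near the limit of detection outside 2 libraries. It had 426 of its 468 counts in the IHC library labelled P75 (14.6 CPM) and 25 in OHC (P7) library 15 (1.68 CPM), and no more than 10 counts in any other library. The latter is the library with 382 CPM of connective tissue markers, whose part in the Fgfr2 counts was not tested. The other IHC library held 1 count. Its annotated exons on chromosome 7 overlap those of Ctbp2 on the same strand, so reads there could be counted on neither or either gene. Fgfr2 is therefore given by its counts and no fold.

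Per kilobase of exon, the receptors could be compared with each other. In SCs the mean was 34.8 ± 14.8 CPM per kb for Fgfr3 (SD, n = 2) and 8.37 ± 0.444 for Fgfr1 (SD, n = 2). In cHCs it was 64.6 ± 2.76 CPM per kb for Fgfr3 (SD, n = 2) and 14.4 ± 1.36 for Fgfr1 (SD, n = 2). Fgfr4, the remaining kinase receptor, had 7.05 ± 0.0585 CPM per kb in cHCs (SD, n = 2) and no count in either IHC library. SC library 12 held 255 Fgfr4 counts and SC library 11 held 7, so the cHC level exceeded both, with a log2 fold change of 2.12 ± 2.08 (SE) and an adjusted p of 0.694 by edgeR.

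**Figure D1:**
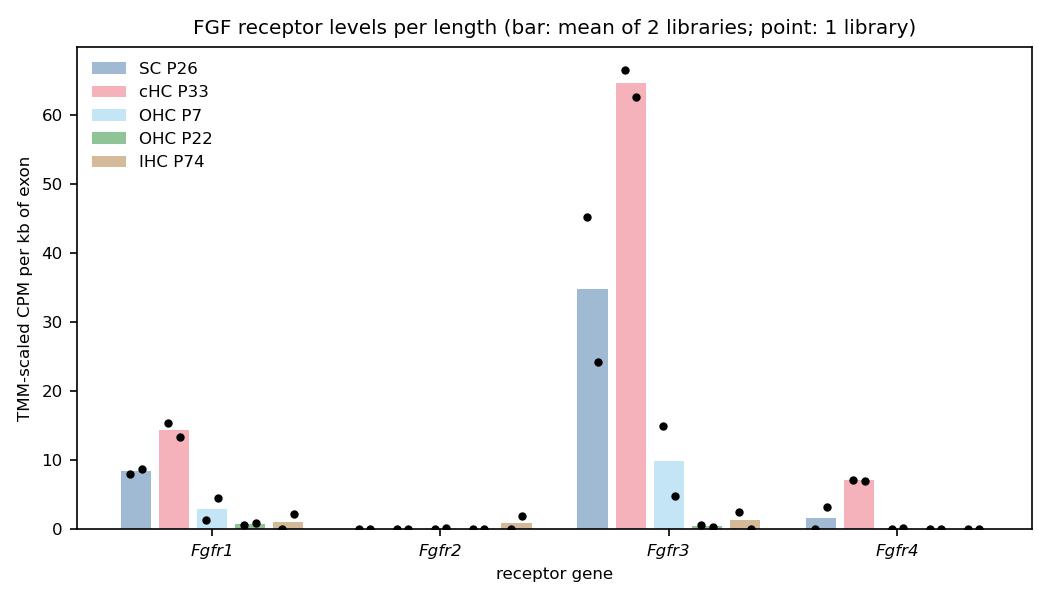
TMM-scaled CPM per kb of exon (vertical axis, linear) of the 4 FGF receptor kinases in each cell type, with bars at the mean of 2 libraries and points for single libraries. Fgfr3 has the tallest bars in SCs (34.8) and cHCs (64.6), and Fgfr2 stays near 0 except in 1 IHC library.

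The ligands among the 10 genes were almost absent. Fgf8, the IHC signal to pillar cells, had 21 counts in all, 18 of them in cHC library 16 (0.457 CPM), and none in either IHC library. A count of 0 there allows up to 0.110 and 0.113 CPM before scaling, which covers counting error only. Fgf20, the ligand of early sensory progenitors, had no count in any library. Neither gene was tested, since neither passed the filter on low counts.

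Spry2, a Sprouty inhibitor of receptor tyrosine kinase signalling, was the most abundant feedback target. Its gene lies on chr14:106291166-106296036 of mm9, on the minus strand. Spry2 stood at 362 and 249.5 CPM in SCs, 106 and 13.7 CPM in cHCs, 26.2 and 23.2 CPM in OHCs (P7), 0 and 8.04 CPM in OHCs (P22), and 9.77 and 21.6 CPM in IHCs. Both SC libraries exceeded all 8 others. The cHC libraries differed from each other by more than the OHC (P7) and IHC libraries did, and library 16 lay below both OHC (P7) libraries.

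Spry1, a second Sprouty inhibitor, was found in SCs, cHCs and 1 IHC library. SCs held 28.2 and 14.4 CPM, and cHCs held 14.3 and 4.04 CPM. OHCs (P7) held 1 count in each library, and OHCs (P22) held 1 and 4. In IHCs it stood at 0.337 and 53.2 CPM, and the highest and one of the low values of the gene thus came from the same cell type. The IHC library labelled P75, with the high value, was also the library with high Fgfr2, and with more Fgfr1 than the other IHC library. It also held more of the 4 connective tissue markers (87.6 against 17.6 CPM) and of the 3 glial markers (85.9 against 33.1 CPM), and their part in these values was not tested.

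Etv5, an ETS factor downstream of ERK, split the SC libraries. One held 1 count and the other 1375 (61.1 CPM). It stood at 69.7 and 22.6 CPM in cHCs, 15.9 and 7.59 CPM in OHCs (P7), and 17.2 and 7.97 CPM in IHCs, and OHCs (P22) held 0 and 3 counts. The OHC (P22) libraries lay below the cHC, OHC (P7) and IHC libraries without overlap. Etv4, its close relative, had 11 counts in all, 9 of them in cHC library 13. Spry4, another Sprouty gene, had 5 counts in all, 4 of them in the same library. Both stayed under 1 CPM in every library and were not tested.

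**Figure D2:**
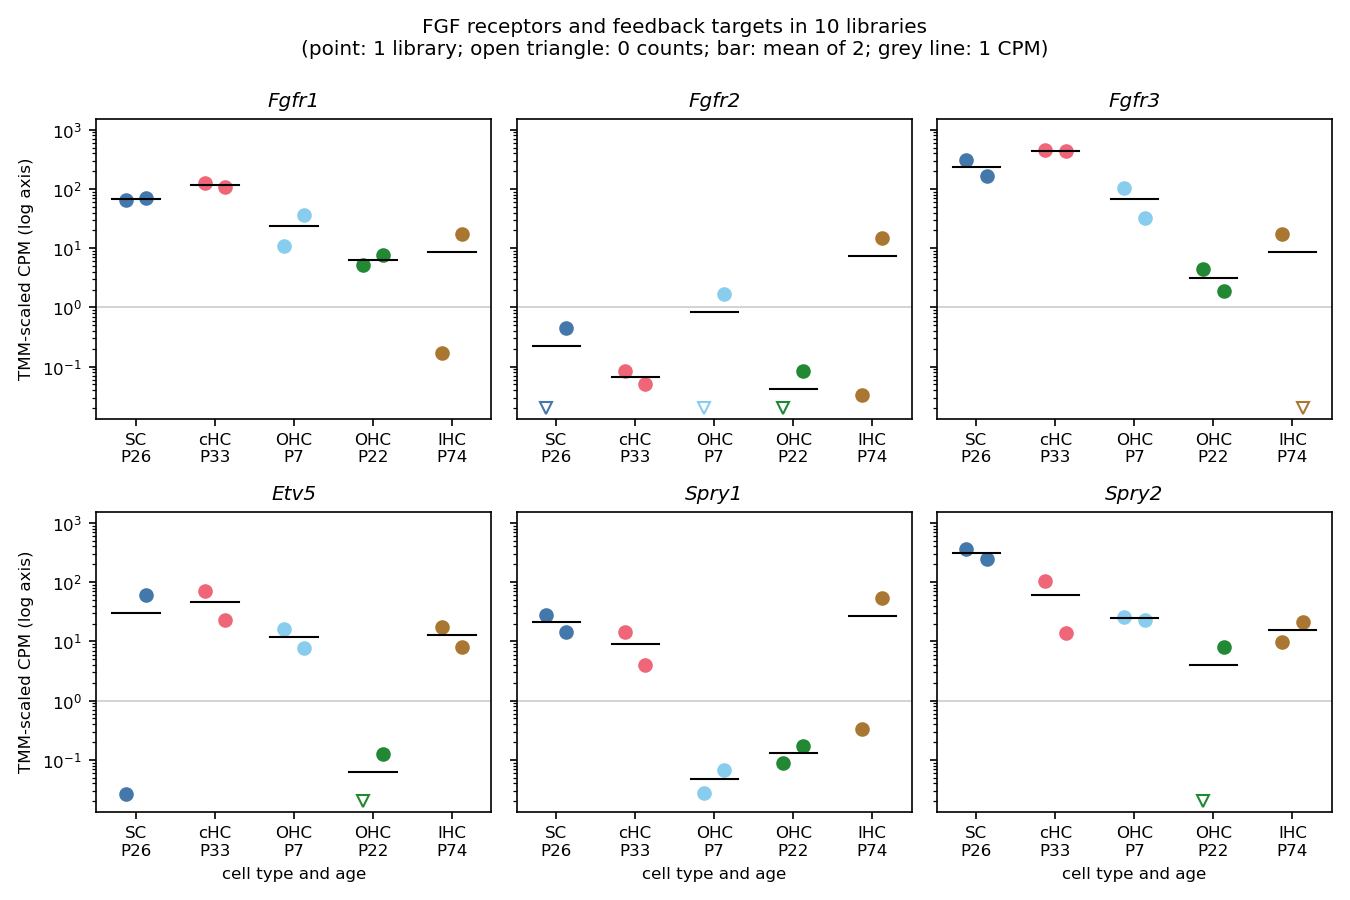
TMM-scaled CPM (vertical log axis) of the 6 genes that passed the filter, with 1 point per library, an open triangle for 0 counts and a bar at the mean of 2. Fgfr3 and Fgfr1 are highest in cHCs, Spry2 is highest in SCs (362 and 249.5 CPM), and the OHC (P22) points are low in every panel.

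The promoters of 5 of the 10 genes were found in the RefSeq table (GRCm38.p6), each running from 250 bases before to 50 bases after a start. They were searched on both strands for CCGGAA, a core of ETS binding sites, and for TGACGTCA, the cyclic AMP response element. The first was in 14.9% and the second in 1.79% of all 32851 promoters of that length. Among the windows of Fgfr2, Fgfr3, Etv5, Spry1 and Spry2, CCGGAA was found in that of Spry2 alone, once, from base 284 of 300, and TGACGTCA in none. The windows below belong to the receptor with the highest level and to the 2 Sprouty genes that reached 1 CPM, which were low together in OHCs (P22). They are given 5′ to 3′ in lower case, with the ETS core in capitals. They lie at chr5:33721474-33721773 (plus strand) for Fgfr3, chr3:37639697-37639996 (plus strand) for Spry1 and chr14:105896770-105897069 (minus strand) for Spry2, and Fgfr3 has a second start that is not shown.
Fgfr3: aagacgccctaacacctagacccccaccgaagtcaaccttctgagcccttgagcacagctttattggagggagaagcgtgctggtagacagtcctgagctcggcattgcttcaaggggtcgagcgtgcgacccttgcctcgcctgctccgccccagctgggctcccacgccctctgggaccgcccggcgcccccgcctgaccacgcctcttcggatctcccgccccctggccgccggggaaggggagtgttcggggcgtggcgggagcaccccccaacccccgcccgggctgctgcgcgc
Spry1: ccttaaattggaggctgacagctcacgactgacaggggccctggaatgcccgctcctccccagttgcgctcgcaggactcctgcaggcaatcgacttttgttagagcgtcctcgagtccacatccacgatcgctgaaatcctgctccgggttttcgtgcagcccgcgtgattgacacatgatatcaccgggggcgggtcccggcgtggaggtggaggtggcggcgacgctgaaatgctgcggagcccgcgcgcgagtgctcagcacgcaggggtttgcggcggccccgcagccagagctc
Spry2: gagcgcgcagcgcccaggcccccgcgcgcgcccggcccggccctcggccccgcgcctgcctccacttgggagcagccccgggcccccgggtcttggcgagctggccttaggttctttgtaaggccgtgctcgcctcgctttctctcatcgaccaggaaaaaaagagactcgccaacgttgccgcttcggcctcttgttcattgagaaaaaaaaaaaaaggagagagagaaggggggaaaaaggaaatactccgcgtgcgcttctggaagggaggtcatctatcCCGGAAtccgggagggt

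Over all 5 cell types, no member was called at an adjusted p under 0.05. The joint edgeR test, with Benjamini-Hochberg adjustment over 16891 genes, called 0 of the 6 genes tested, where 7.81% of all genes were called. At an unadjusted p under 0.05 it found 3 (25.6% of all genes): Spry1 (adjusted p = 0.0832), Fgfr3 (adjusted p = 0.0842) and Spry2 (adjusted p = 0.0985). limma-voom, the method of the study, called 2 (13.5% of all genes), Fgfr3 with an adjusted p of 0.0150 and Fgfr1 with 0.0410. DESeq2 called 5 (26% of all genes), all tested members but Fgfr2. Without a filter on low counts, edgeR called the same 5 of 9 tested (17.4% of all genes).

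Leaving out any 1 library gave between 1 and 3 joint calls by edgeR, where 6.29% to 8.94% of all genes were called. The remaining library of that type was then assumed to vary like the other types. Fgfr3 passed without SC library 12, cHC library 13, either OHC (P7) library or either IHC library, with adjusted p-values from 6.64e-05 to 0.0474. Spry2 passed without either cHC library, either OHC (P22) library or the IHC library labelled P75, with adjusted p-values from 0.00514 to 0.0481. Etv5 passed without SC library 11 (0.0304) or 12 (0.0217), Spry1 without the IHC library labelled P74 (0.0149) and Fgfr1 without the IHC library labelled P75 (0.00639).

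Over the 10 pairs of cell types, edgeR called 0 of 60 tests of members (2.28% over all genes), and 22 had an unadjusted p under 0.05 (16.2% over all genes). limma-voom called 6 (4.74% over all genes) and DESeq2 21 (12.5% over all genes). Without the filter, where more members were tested, edgeR called 22 (4.97% over all genes). When only the libraries of the pair were fitted, it called 4 of 49 tests (2.03% over all genes). With 2 libraries against 2, an exact permutation test of a single gene cannot give a p below 0.333.

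The comparison of cHCs with SCs addresses what differs after Atoh1 expression in cells of the same Cre line. The types also differed in age, and cHCs were picked on EGFP under the Chrna9 promoter as well, so these cannot be told apart from the transgene. Fgfr1 and Fgfr3 had higher values in cHCs, and Spry1 and Spry2 lower values, in each case without overlap of the libraries, and Etv5 and Fgfr2 overlapped. The fitted log2 fold change was 0.89 ± 1.49 (SE) for Fgfr3 and 0.78 ± 1.34 (SE) for Fgfr1. It was -2.35 ± 1.46 (SE) for Spry2 and -1.21 ± 1.76 (SE) for Spry1. edgeR called 0 of 6 (1.84% of all genes), with adjusted p-values from 0.470 for Spry2 upwards, and 0 had an unadjusted p under 0.05 (15% of all genes). The 2 members lower in cHCs without overlap compare with 20.4% of all genes, and the 2 higher with 25.4%. The gap of Spry1 was narrow, and without TMM factors its libraries overlapped, at 17.2 CPM in cHC library 13 and 14.3 CPM in SC library 12. limma-voom put Spry2 past the threshold, with a log2 fold change of -3.31 ± 0.82 (SE) and an adjusted p of 0.0372. Between the same libraries, the SC markers summed to 702 and 446 CPM in cHCs, against 1605 and 1246 CPM in SCs, and their part in the Sprouty values was not tested. Prox1, an SC marker, went the other way, at 247 and 293 CPM in cHCs against 53.7 and 14.7 CPM in SCs.

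Among the 6 tested members, OHCs (P22) had the lowest mean CPM of all but Spry1, which was lower in OHCs (P7). The rest of the pathway was mixed. Of the other feedback targets, Il17rd had its lowest mean in OHCs (P22), and Dusp6 and Spred1 had their highest. Against SCs, OHCs (P22) showed lower fits for all 6 tested members, with no overlap of the libraries for 4 (25.3% of all genes were lower in this way). The log2 fold change was -6.26 ± 1.87 (SE) for Fgfr3, with an adjusted p of 0.0667 by edgeR. For Spry2 it was -6.23 ± 1.75 (SE), with an adjusted p of 0.0534, and for Fgfr1 it was -3.40 ± 1.47 (SE), with an adjusted p of 0.175. Spry1 (adjusted p = 0.0823) and Etv5 (adjusted p = 0.0810) had too few counts in OHCs (P22) for a fold. edgeR called 0 of 6 (8.02% of all genes), and 5 had an unadjusted p under 0.05 (25.7% of all genes). limma-voom put Spry2 past the threshold (adjusted p = 0.0268). DESeq2 put all tested members but Fgfr2 past it, with adjusted p-values from 8.35e-05 to 0.0461. It called 12.5% over all genes in the pooled pairs, and its share in this pair alone is not given. The median log2 fold change of the 6 was -6.24, against 0 over all genes tested. It includes Fgfr2, Spry1 and Etv5, which had too few counts in OHCs (P22) for a fold and passed the filter through other cell types. The median is therefore a description only.

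Leaving out single libraries moved members across the threshold of edgeR. The share of all genes that passed without the same libraries is given only over the pairs pooled, further below. These passes, and those in the other pairs, are therefore a description only. Fgfr3 passed in OHCs (P22) against SCs without either cHC library, either OHC (P7) library or either IHC library, with adjusted p-values from 0.000329 to 0.0401. Spry2 passed without the same 6 libraries or without the OHC library labelled P22, with adjusted p-values from 0.00334 to 0.0256. Fgfr1 passed without the IHC library labelled P74 (0.0424) or P75 (0.0446), Spry1 without the IHC library labelled P74 (0.0289) and Etv5 without SC library 11 (0.00740).

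Against cHCs, all 6 tested members again had lower fitted values in OHCs (P22), 5 of them without overlap (28.1% of all genes were lower in this way). The log2 fold change was -7.15 ± 1.95 (SE) for Fgfr3, with an adjusted p of 0.0764 by edgeR. It was -4.18 ± 1.52 (SE) for Fgfr1, with an adjusted p of 0.176, and -3.88 ± 1.57 (SE) for Spry2, with an adjusted p of 0.212. DESeq2 put all tested members but Fgfr2 past the threshold, with adjusted p-values from 8.76e-05 to 0.0319. It called 12.5% over all genes in the pooled pairs. By limma-voom the adjusted p of Fgfr3 was 0.0560. edgeR called 0 of 6 (3.18% of all genes), and 5 had an unadjusted p under 0.05 (19.3% of all genes). Fgfr3 passed without either SC, either OHC (P7) or either IHC library, with adjusted p-values from 0.000564 to 0.0436. Fgfr1 passed without the IHC library labelled P74 (0.0275) or P75 (0.0290), Etv5 without SC library 11 (0.00926) or 12 (0.0160) and Spry2 without the OHC library labelled P22 (0.0146). These comparisons share the OHC (P22) libraries and span both number series.

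**Figure D3:**
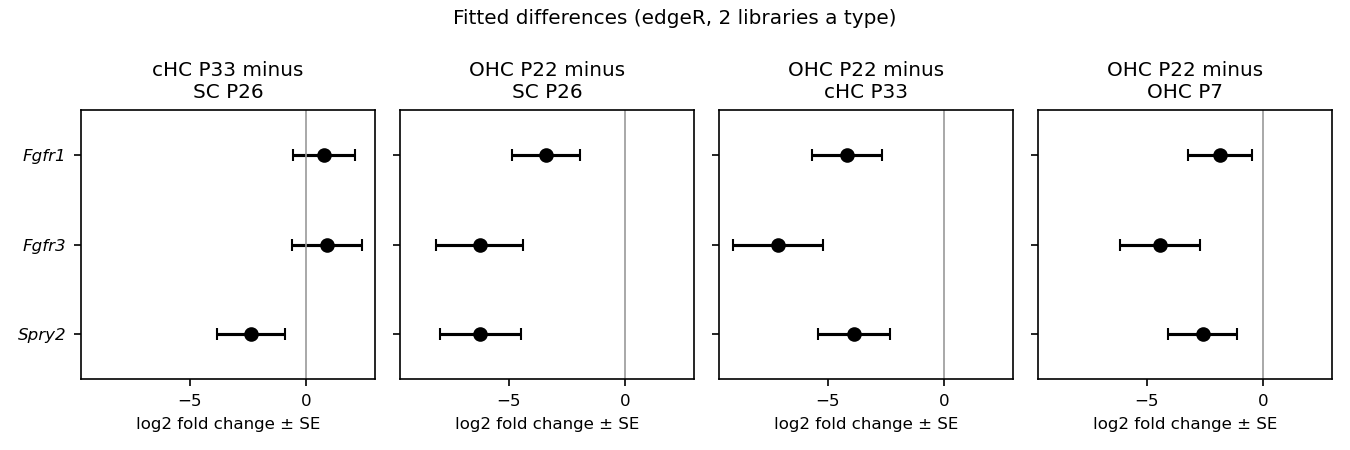
Log2 fold change (horizontal axis) with its SE for Fgfr1, Fgfr3 and Spry2 in 4 comparisons fitted by edgeR, 2 libraries a cell type. Fgfr1 and Fgfr3 lie right of 0 in cHCs minus SCs, and every other point lies left of 0. None passed an adjusted p of 0.05.

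Between the ages of OHCs, 4 members were lower at P22 without overlap (23.6% of all genes were lower in this way): Fgfr1, Fgfr3, Etv5 and Spry2. The log2 fold change was -4.44 ± 1.72 (SE) for Fgfr3, -2.60 ± 1.48 (SE) for Spry2 and -1.87 ± 1.38 (SE) for Fgfr1. edgeR called 0 of 6 (0.551% of all genes), the lowest adjusted p being 0.267 for Etv5, and 2 had an unadjusted p under 0.05 (13.9% of all genes). Fgfr3 passed without the IHC library labelled P74 (0.0165) or P75 (0.0150), and Spry2 without the OHC library labelled P22 (0.0380). In these libraries the SC markers summed to 260 and 76.7 CPM at P7 and to 6.61 and 7.83 CPM at P22, with Sox2 at 0 counts in both P22 libraries. Their part in the difference was not tested.

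OHCs (P7) and IHCs were also set against SCs. In OHCs (P7), edgeR called 0 of 6 (3.41% of all genes) and 2 had an unadjusted p under 0.05 (18.9% of all genes), Spry1 with an adjusted p of 0.0898 and Spry2 with 0.238. The log2 fold change of Spry2 was -3.63 ± 1.55 (SE), and that of Fgfr3 was -1.81 ± 1.53 (SE). limma-voom put Spry1 past the threshold (adjusted p = 0.0468). By edgeR, Spry1 passed without the IHC library labelled P74 (0.0264) and Spry2 without the OHC library labelled P21 (0.0427). In IHCs, edgeR called 0 of 6 (2.65% of all genes) and 2 had an unadjusted p under 0.05 (17.4% of all genes). These were Fgfr3, with a log2 fold change of -4.79 ± 1.74 (SE) and an adjusted p of 0.201, and Spry2, with -4.28 ± 1.59 (SE) and 0.212. limma-voom put both past the threshold, with adjusted p-values of 0.0426 and 0.0453. Fgfr1, Fgfr3 and Spry2, 3 members in all, were lower in IHCs without overlap (22.3% of all genes were lower in this way). By edgeR, Fgfr3 passed without the IHC library labelled P74 (0.000244), Fgfr1 without that labelled P75 (0.0151), and Spry2 without the OHC library labelled P21 (0.0257) or P22 (0.0344).

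Summed over the 5 feedback targets, the level was 390 and 325 CPM in SCs, 191 and 40.4 CPM in cHCs, 42.2 and 30.8 CPM in OHCs (P7), 0.0882 and 8.34 CPM in OHCs (P22), and 27.4 and 82.8 CPM in IHCs. The sum was highest in SCs and lowest in OHCs (P22), and the libraries of the other 3 types overlapped. The 7 SC markers were highest and lowest in the same types, with 6.61 and 7.83 CPM in OHCs (P22) against 1605 and 1246 CPM in SCs. IHCs departed from this order, with SC markers at 804 and 639 CPM, above both cHC libraries in 1 case, and feedback targets below those of cHC library 13. The IHC share of the SC markers was mostly Gjb2, a gap junction gene, at 611 and 468 CPM. Of the sum of feedback targets, Spry2 alone gave 362 and 249.5 CPM in SCs and 8.04 CPM in the OHC library labelled P22. Spry1 gave 53.2 of the 82.8 CPM in the IHC library labelled P75, and Etv4 and Spry4 stayed under 1 CPM throughout. In SCs the sum was thus mostly Spry2.

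**Figure D4:**
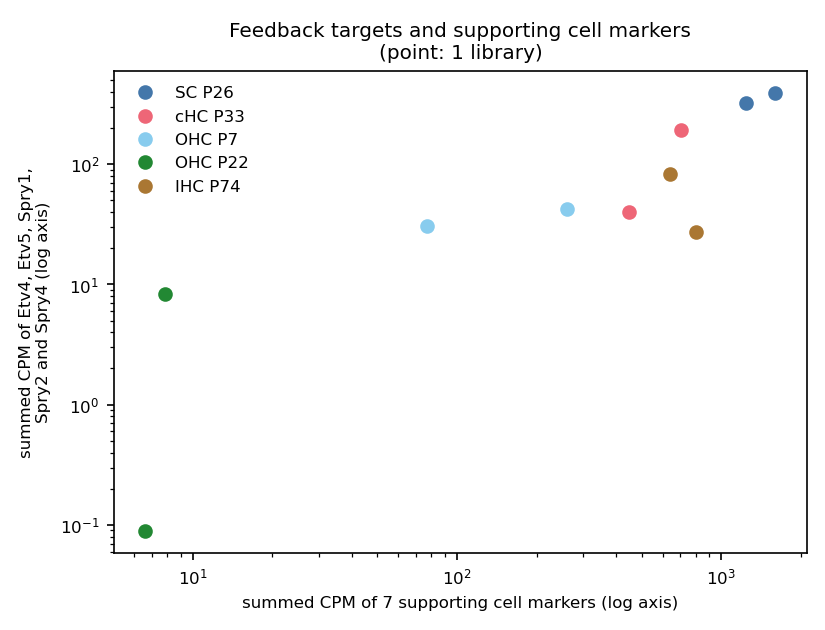
Summed CPM of the 5 feedback targets (vertical log axis) against summed CPM of 7 supporting cell markers (horizontal log axis), 1 point per library. SCs lie at the upper right (390 and 325 CPM of feedback targets, mostly Spry2) and OHCs (P22) at the lower left (0.0882 and 8.34 CPM).

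Over the lists of other pathway genes, edgeR called 3 of 38 genes tested in the joint test, or 7.89%, near the 7.81% of all genes, and 6 in any test. The share of all genes called in any test was not computed, so counts in any test, here and below, are a description only. Among 7 other receptors and co-receptors, all tested, edgeR called none in the joint test or any pair, and 4 had an unadjusted p under 0.05 in the joint test (25.6% of all genes). The most abundant were Fgfrl1, a receptor without a kinase, at 1.61 to 126 CPM, and Flrt1, a membrane partner of FGF receptors, at 0.109 to 87.1 CPM.

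Of 16 other secreted ligands, 7 had no count and 6 were tested. Fgf10, a ligand of the epithelial form of FGFR2, differed in the joint test (adjusted p = 0.0399 by edgeR). It stood at 59.1 and 44.8 CPM in IHCs and at 2.12 CPM or less in the other 8 libraries, and the call was lost without the IHC library labelled P74 (0.0844). Fgf9, a ligand of the cochlear epithelium in development, stood at 22.8 and 30.7 CPM in SCs and had 3 and 0 counts in OHCs (P7). It was called in that pair (adjusted p = 0.0380 by edgeR), and lost the call without either library of either type, with adjusted p-values from 0.0556 to 0.203. It was not confined to SCs, since OHCs (P22) held 4.58 and 31.7 CPM. Fgf1, a ligand of all FGF receptors, was the most abundant of the list, at 0.0508 to 46.0 CPM.

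Of the 4 intracellular FGF homologous factors, which bind sodium channels and are not secreted, 2 were tested. Fgf11 differed in the joint test (adjusted p = 0.00562 by edgeR), also without each library in turn. It stood at 89.7 and 129 CPM in cHCs, 19.4 and 13.8 CPM in OHCs (P7), and 1.24 CPM or less in the other 6 libraries. It rose by 9.04 ± 1.74 (SE) log2 units in cHCs against SCs (adjusted p = 0.0236 by edgeR). The SC libraries held only 7 and 5 counts, so the size of this fold is uncertain. The call was lost without SC library 11, SC library 12 or cHC library 16. It was also called lower in OHCs (P22), which held 1 and 4 counts, than in cHCs (adjusted p = 0.0167), a call lost without the OHC library labelled P21 (0.0938) or P22 (0.0518). Fgf12 stood at 7.65 and 8.63 CPM in IHCs and at 2.60 CPM or less elsewhere, and was not called. The part of the neuronal markers of the IHC libraries in the Fgf10 and Fgf12 levels was not tested.

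Of 17 adaptors and kinases, all tested, 2 were called in any test. Shc1, an adaptor between receptor tyrosine kinases and RAS, differed in the joint test (adjusted p = 0.0247 by edgeR, or 0.0870 without SC library 12). It stood at 6.99 and 2.35 CPM in SCs, 42.8 and 50.5 CPM in cHCs, and between 87.6 and 137 CPM in the 6 OHC and IHC libraries, without overlap between these 3 sets. Against SCs it rose by 3.31 ± 0.73 (SE) log2 units in cHCs (adjusted p = 0.0491 by edgeR). It rose by 4.5 ± 0.77 (SE) in OHCs (P7) (adjusted p = 0.00943), by 4.62 ± 0.78 (SE) in OHCs (P22) (adjusted p = 0.00484) and by 4.32 ± 0.77 (SE) in IHCs (adjusted p = 0.0119). The cHC call was lost without any SC, cHC, OHC (P7) or IHC library, with adjusted p-values from 0.0550 to 0.250. The OHC (P7) and IHC calls were lost without SC library 12 (0.0538 and 0.0702), and the OHC (P22) call held without each library in turn.

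Mapk3, which encodes ERK1, stood at 277 and 151 CPM in SCs and at 13.7 and 27.2 CPM in OHCs (P22), and fell by 3.39 log2 units between them (SE 0.77, adjusted p = 0.0215 by edgeR). The call was lost without SC library 11 (0.0818) or the OHC library labelled P21 (0.111). Braf, the kinase with the highest mean level, ranged from 201 to 692 CPM and was not called in the joint test. The list of 17 had a median log2 fold change of -0.06 in OHCs (P22) against SCs, with 1 gene higher and 1 lower.

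Of 7 other feedback targets, 6 were tested and 1 was called in any test. Il17rd, which encodes the membrane inhibitor Sef, stood at 17.4 and 90.3 CPM in SCs and had 0 and 2 counts in OHCs (P22) (adjusted p = 0.0298 by edgeR). The call was lost without SC library 12 (0.0778) or the OHC library labelled P21 (0.132) or P22 (0.0687). Spred1, an inhibitor of RAF activation, ranged from 24.1 to 111 CPM and was highest in OHCs (P22), and Etv1, an ETS factor, stood at 77.7 and 62.6 CPM in cHCs and at 0 and 0.421 CPM in OHCs (P22). Neither was called. Dusp6, the ERK phosphatase, stood at 3.75 and 0.80 CPM in SCs and at 48.3 and 22.8 CPM in OHCs (P22), the opposite order to Spry2, and was not called. The lists of other pathway genes were chosen with earlier results of these data known, and no call of theirs is evidence for a direction of the list.

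**Figure D5:**
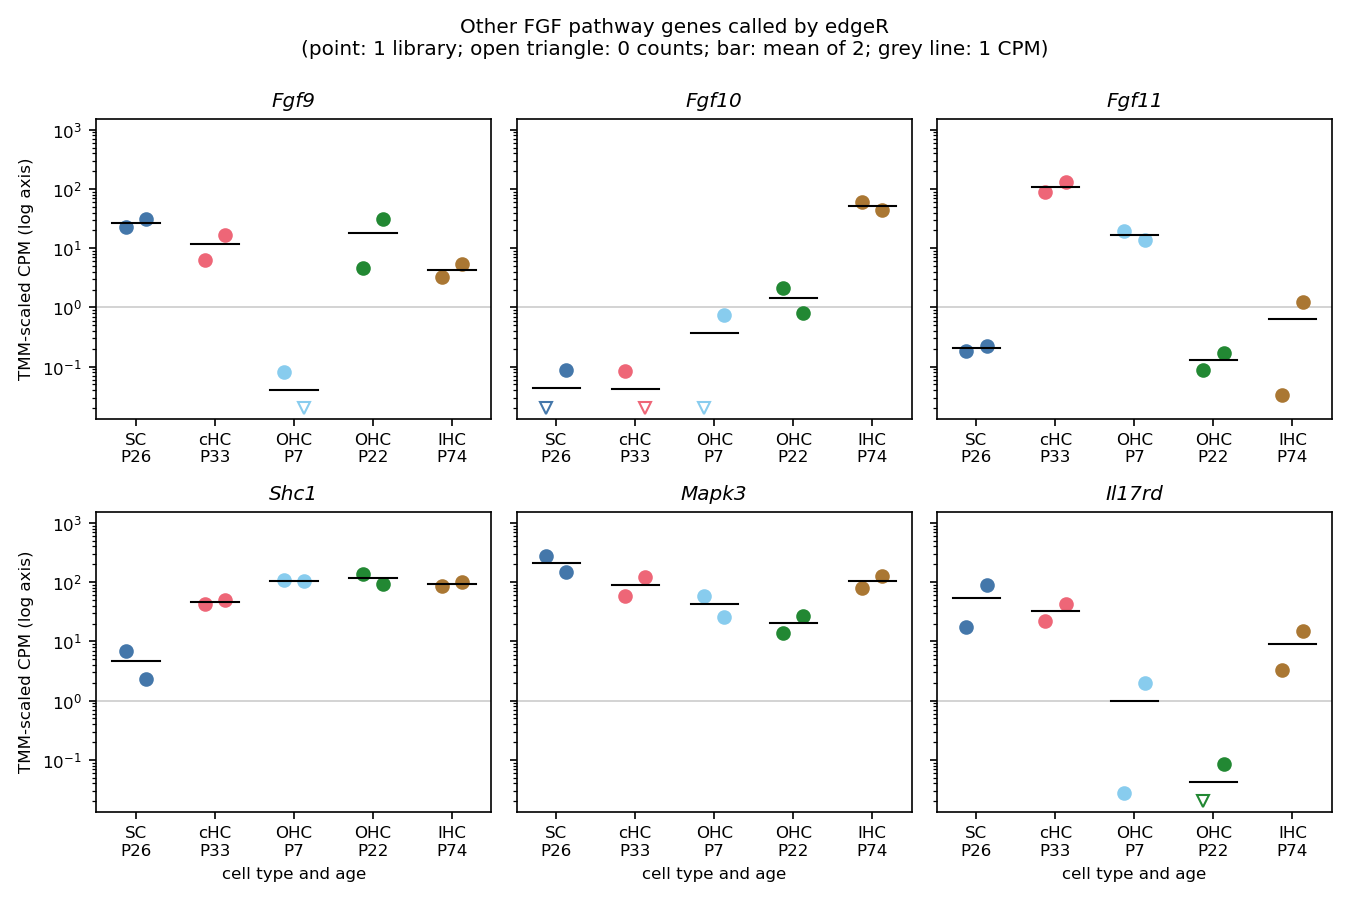
TMM-scaled CPM (vertical log axis) of the 6 other pathway genes that edgeR called in any test, with 1 point per library, an open triangle for 0 counts and a bar at the mean of 2. Fgf11 is highest in cHCs (89.7 and 129 CPM), Fgf10 in IHCs (59.1 and 44.8 CPM), and Shc1 is lowest in SCs.

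The genes whose log2 CPM over the 10 libraries was most like that of Fgfr3 were Pde1c (Pearson's r = 0.939), Efna5 (0.930) and Gcnt2 (0.926). The 99th percentile of r over all genes tested was 0.775. The 10 points share the cell type and number series in pairs, so r is a description only. No such genes were sought for Fgf8, which did not pass the filter.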

How the data were processed

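Total RNA of handpicked cells was amplified by single primer isothermal amplification and sequenced as paired-end reads. Per the labels and the study's methods, the authors trimmed and mapped reads to mm9 with STAR and BWA and deposited raw HTSeq counts per gene symbol, without normalization. Rows naming no gene held 44.2% to 72.1% of each file and were left out. The share was highest in OHCs (P22), at 72.1% and 66.8%, against 47.8% and 44.2% in SCs. Its part in the low values of OHCs (P22) was not tested.

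The files of 4 of the 10 sample records held another sample's counts. Each file was identified by its constant ratio to the study's CPM columns, and the file so identified bears the sample's own title. The files as attached were an alternative.

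Counts were tested with edgeR 4.0.16 in R 4.3.3 (TMM, filterByExpr, quasi-likelihood F-tests, 1 model of 10 libraries, Benjamini-Hochberg threshold 0.05), which kept 16891 genes at a common dispersion of 1.12. The SE is the log2 fold change divided by the square root of F. Alternatives were DESeq2 1.42.0, limma 3.58.1 with voom, RLE factors, other filters, other sets of libraries and CPM without TMM. Scripts were tested on simulated data. Coordinates and exon lengths are from the mm9 GENCODE annotation. Named genes were the members, other pathway genes called in any test or among the 2 most abundant of their list, and the 3 genes most like Fgfr3. 1 gene that the rule names is not reported here. Dusp6, Fgfr4, Gjb2 and Prox1 were added after their values were seen. The members and lists were chosen with earlier results of these data known.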

Additional observations from a re-analysis of the deposited data

How the results depend on the processing

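Of 42 tests of single genes, 12 called and 30 not, RLE factors changed no call and no direction. Other settings did change calls. DESeq2 added 20, edgeR without a filter added 20, and limma-voom added 7 and lost 1. With only the cell types compared, 4 were added and 4 lost. The joint tests among the 42 have no direction. No pairwise test among them reversed with DESeq2, limma-voom, no filter, fewer cell types in the fit or libraries 11 to 16 alone. The last setting covered only the pairs among SCs, cHCs and OHCs (P7). Over all 60 tests of members in pairs, limma-voom reversed 8 directions and leaving out 1 library 0 to 7. The 8 were Fgfr2 in cHCs against SCs, Etv5 in OHCs (P7) (3.35 against -1.38) and IHCs (3.30 against -1.28) against SCs, Spry1 in IHCs against SCs (-2.33 against 0.33) and cHCs, Etv5 in IHCs against OHCs (P7), and Fgfr1 and Fgfr3 in IHCs against OHCs (P22). The number of members called in the joint test was 0 with edgeR, 5 with DESeq2, 2 with limma-voom and 5 without a filter, and 1 to 3 leaving out 1 library. Over all pairs it was 0 with edgeR, 21 with DESeq2, 6 with limma-voom, 22 without a filter, 4 with only the cell types compared, and 2 to 12 leaving out 1 library. Leaving out 1 library called 6.29% to 8.94% of all genes in the joint test and 1.82% to 2.79% over the pairs. The cause of these differences was not tested. No member had 10 counts in every library, so that filter gave no value. The number of members reaching 1 CPM in any library was 6 with or without TMM factors.

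Without SC library 11 or cHC library 13, the log2 fold change of Etv5 in cHCs against SCs turned from 0.60 to -0.40 or -0.43, its range over the libraries left out being -0.43 to 10.53. Without SC library 12, that of Etv5 in OHCs (P22) against SCs turned to 1.32, in a range from -12.70. The Shc1 call in cHCs was lost with limma-voom (adjusted p = 0.0783), with only the cell types compared (0.183) and with libraries 11 to 16 alone (0.0848). With only the cell types compared, the calls against SCs of Shc1 in OHCs (P7) (0.0528) and IHCs (0.0715) and of Fgf9 in OHCs (P7) (0.0699) were also lost.

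With the files as attached to the records, 0 members were called, and 11 of the 12 calls of other genes were lost. The remaining call, of Fgf11 in cHCs against SCs, changed sign, so none of the 12 results held. In cHCs against SCs the log2 fold changes then became -0.94 for Fgfr1, -0.86 for Fgfr3, -4.11 for Etv5, 0.11 for Spry2 and -2.68 for Fgf11, each of the opposite sign. No cell types share a library number, and no paired analysis was made. Within SCs, cHCs and OHCs (P7), the titles of libraries 12, 13 and 15 bear an added sample number, and those of 11, 14 and 16 do not. The former held 15016129 to 22597688 reads on genes and the latter 33162033 to 40518766. What this mark stands for is not given, and its part in the values was not tested.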

Other observations

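The balance of feedback targets and receptors, chosen after the values were seen, was set per kilobase of exon as the summed level of Etv4, Etv5, Spry1, Spry2 and Spry4 over that of Fgfr1, Fgfr2 and Fgfr3 in the same library. The ratio was 3.43 and 4.22 in SCs and 0.892 and 0.177 in cHCs, without overlap. It was 1.01 and 1.38 in OHCs (P7), 0.0236 and 3.23 in OHCs (P22), and 3.54 and 7.65 in IHCs. The IHC ratios rested on receptor sums of 2.54 and 4.0 CPM per kb and the OHC (P22) ratios on 1.29 and 1.22, against 53.3 and 33.04 in SCs. Spry2 gave 173 and 120 CPM per kb of feedback sums of 183 and 140 in SCs. Fgfr3 gave 66.6 and 62.7 CPM per kb of receptor sums of 81.9 and 76.1 in cHCs. The ratios of SCs and cHCs thus rest largely on Spry2 and Fgfr3. The Fgfr3 promoter drove the Cre by which both were picked, and no share over other sets of genes was computed.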
